A study of Ovis aries with 12 samples.

Results

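The insulin-like growth factor genes measured here are the growth factors IGF1 and IGF2, the receptors IGF1R and IGF2R, and 6 binding proteins, IGFBP2 to IGFBP7. They were taken by symbol, whatever their values, and all 10 were found among the 21257 genes of the deposited expression table. All 10 also passed the filter for testing, at least 1 FPKM in at least 3 libraries. FPKM is the number of sequenced fragments of a gene relative to its length and to the size of the library. The RNA came from 5-month-old Tan sheep on 4 diets, with 3 libraries for each. The control sheep received the basal diet, and the other sheep the same basal diet with 0.5%, 1% or 2% succinate, a dicarboxylic acid made by rumen bacteria and in mitochondria. The trial held 36 sheep, 9 per diet, penned individually. No label says whether each library came from its own sheep, so p-values describe the spread between libraries, which may be technical.

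IGF1 and IGF2 are secreted growth factors related to insulin. Both signal through IGF1R, a receptor tyrosine kinase that activates the PI3K-AKT and MAP kinase pathways. IGF2R, the cation-independent mannose 6-phosphate receptor, carries IGF2 to lysosomes for breakdown and also sorts lysosomal enzymes. The binding proteins hold the growth factors in tissue fluid and blood, and proteases that cut them set the growth factors free. In smooth muscle and connective tissue these genes are known for their part in growth, repair and matrix formation.

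The series title names rumen epithelial cells, but defining markers of stratified epithelium were absent or nearly so. Of 8 such markers, 5 (KRT5, KRT4, KRT15, TP63 and IVL) were at 0 in all 12 libraries and none averaged 1 FPKM, while the summed level of 8 smooth muscle markers ran from 24783 to 46747 FPKM. Fibroblast, endothelial, pericyte, macrophage and fat cell markers were present as well. In bulk RNA such as this, fewer cells of a type and less RNA per cell cannot be told apart. Between 15489883 and 18717309 reads per library were assigned to genes. Libraries differed in how long and short genes compared. The Spearman correlation across genes between length and the deviation from the gene mean was 0.577 and 0.433 in replicates 2 and 3 of the 1% diet, where long genes were high, and -0.633 in replicate 2 of the 0.5% diet, where they were low. In the other 9 libraries it lay between -0.367 and 0.282.

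Per length, 5 of the 6 binding proteins stood above both receptors and both growth factors on average, and IGFBP2 did not. IGFBP4 stood first at 312 ± 72 FPKM (SD, n = 12 libraries), followed by IGFBP5 at 148 ± 53.9, IGFBP7 at 127 ± 50, IGFBP6 at 69.5 ± 32.9 and IGFBP3 at 40.5 ± 29.2. IGF2R averaged 11.7 ± 6.42 FPKM, IGF1R 11.1 ± 4.97, IGF1 9.82 ± 5.05, IGFBP2 8.12 ± 6.51 and IGF2 4.74 ± 1.81. By mean level IGFBP4 stood above 98.5% of all tested genes, and IGF2 above 33.3%.

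Several neighbours in that order could not be separated. IGFBP4 was above IGFBP5 in 12 of 12 libraries, and IGFBP7 above IGFBP6 in 12 of 12. IGFBP6 was above IGFBP3 in 11 of 12, as was IGFBP3 above IGF2R. The order of the other pairs changed from library to library: IGFBP5 was above IGFBP7 in 7 of 12 libraries, IGF2R above IGF1R in 6, IGF1R above IGF1 in 7, IGF1 above IGFBP2 in 7 and IGFBP2 above IGF2 in 7. In these last 5 pairs, as in IGFBP3 and IGF2R, the mean difference in FPKM was smaller than its SD over the libraries. Of the summed FPKM of the 6 binding proteins, IGFBP4 made up 44.7% on average (36.8% to 55.3%), IGFBP5 21.2%, IGFBP7 17.8%, IGFBP6 9.62%, IGFBP3 5.33% and IGFBP2 1.32%.

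These levels per length rest on the gene lengths in the file. The length given for IGF2 is 24117 bases, 86.1% of the span of the gene, against 1.07% to 29% for the other 9 genes. In reads, IGF2 averaged 1920 per library and IGF1 1298, the opposite order to FPKM. IGFBP4, IGFBP6 and IGFBP7 have the shortest lengths, 777, 711 and 853 bases. IGFBP5, at 6156 bases, had the most reads of the family, 15424 on average against 4077 for IGFBP4. The fewest reads behind any value were 32, for IGFBP2 in replicate 3 of the 0.5% diet.

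**Figure D1:**
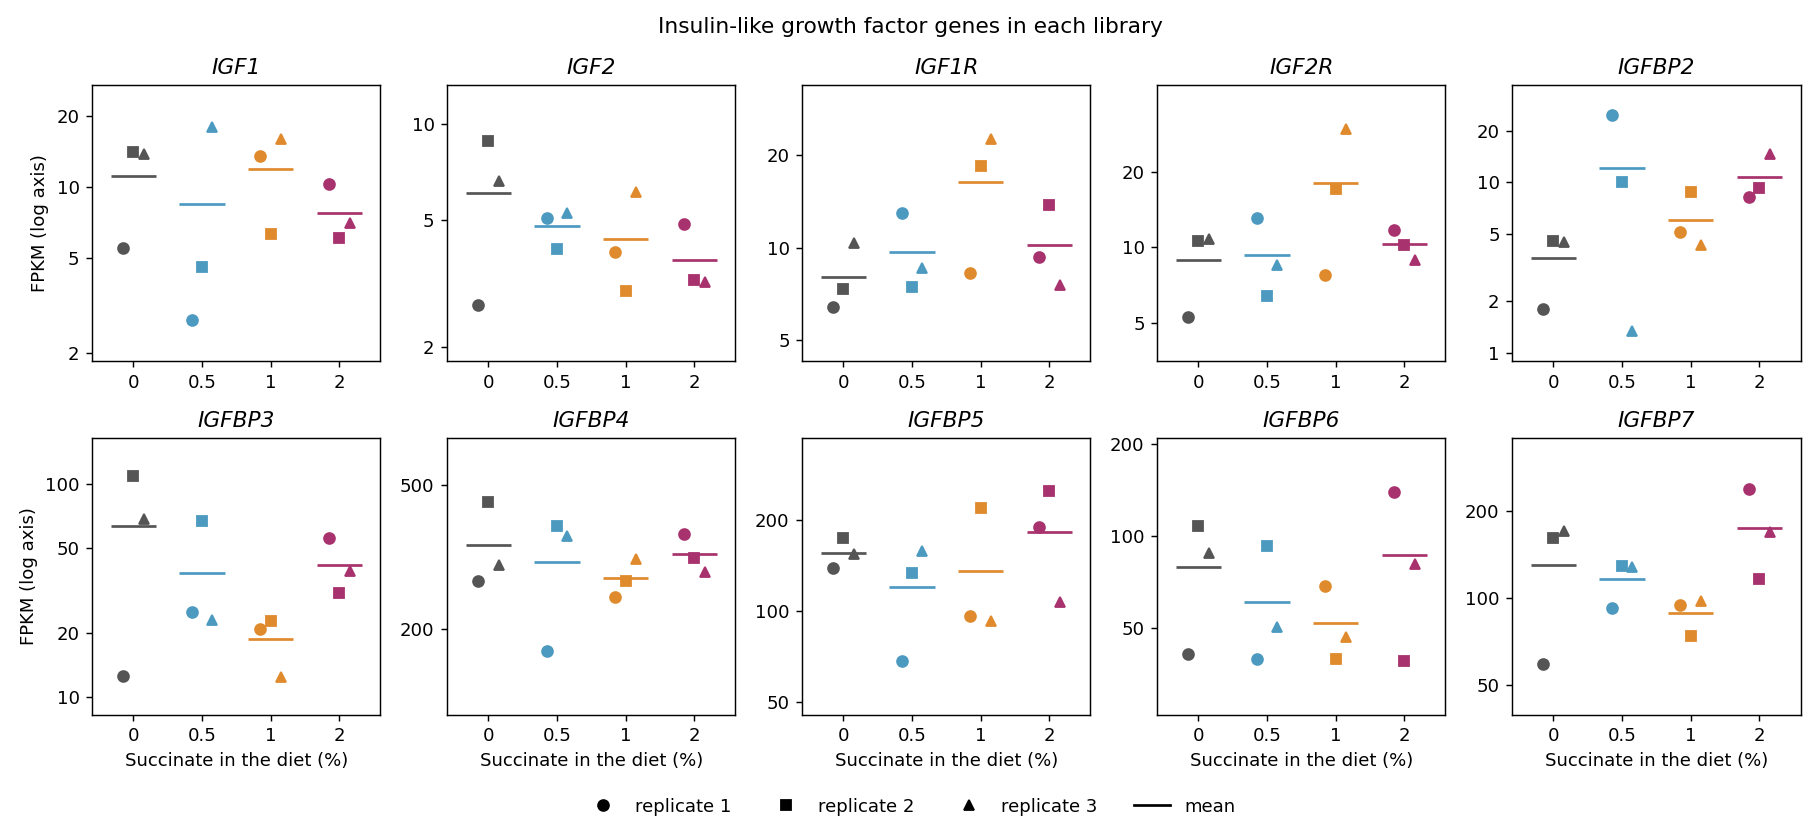
FPKM (log axis, a different range in each panel) of the 10 genes in each library, by succinate in the diet (%). Each symbol is 1 library, its shape gives the replicate number, and the bar is the mean of 3 libraries. Each succinate diet overlaps the control in every panel except for IGFBP2 at 2% succinate, where the 3 libraries lie at 8.17 to 14.7 FPKM against 1.81 to 4.52 in the control.

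IGF1, the main mediator of growth hormone, lies on chromosome 3 from 171766875 to 171847317 (positions here and below are those of the deposited table, whose genome build is not given in the sources used here). In replicates 1 to 3 it stood at 5.51, 14.1 and 13.8 FPKM in the control, at 2.75, 4.60 and 18.0 with 0.5% succinate, at 13.5, 6.33 and 15.9 with 1%, and at 10.3, 6.08 and 7.03 with 2%. The 3 libraries on 0.5% succinate held both the lowest and the highest value of the series, 6.52-fold apart. The libraries of the control were up to 2.55-fold apart, those with 1% 2.51-fold and those with 2% 1.69-fold. Against the control the log2 difference was -0.62 (SE 0.56) at 0.5%, 0.10 (SE 0.56) at 1% and -0.39 (SE 0.56) at 2%, with 95% intervals from -1.86 to 0.62, -1.14 to 1.34 and -1.63 to 0.84. These and all later differences are on the log2(FPKM + 1) scale, which understates those of scarce genes, and come from limma fitted over all tested genes. The adjusted p ran from 0.89 to 0.999.

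IGF2, a growth factor of fetal tissue that stays expressed in adult sheep, lies on chromosome 21 from 45774740 to 45802762. It stood at 2.69, 8.87 and 6.65 FPKM in the control, 5.07, 4.05 and 5.25 with 0.5% succinate, 3.97, 2.98 and 6.12 with 1%, and 4.85, 3.23 and 3.19 with 2%. The control libraries held both the lowest and the highest value of the series. The group means were ordered by dose, from 6.07 ± 3.13 in the control (SD, n = 3 per diet) over 4.79 ± 0.644 and 4.36 ± 1.61 to 3.76 ± 0.946 at 2%. The slope of -0.23 log2 units per percent succinate (SE 0.15, 95% interval -0.54 to 0.08) did not pass the test, with an adjusted p of 0.9998 by limma, and ran from -0.36 to -0.13 with 1 library left out. The differences from the control were -0.18, -0.33 and -0.48 at the rising doses (SE 0.32). With the length trend removed, which is poorly fixed at this length, the slope was -0.35 and the difference at 1% was -0.82, and neither passed (adjusted p 0.9998 and 0.386).

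The receptors had their highest values in the same libraries. IGF1R, on chromosome 18 from 7199205 to 7503235, stood at 6.41, 7.32 and 10.3 FPKM in the control, 13.0, 7.44 and 8.55 with 0.5% succinate, 8.30, 18.3 and 22.5 with 1%, and 9.30, 13.7 and 7.56 with 2%. IGF2R, on chromosome 8 from 83938828 to 84041903, stood at 5.28, 10.6 and 10.8 FPKM in the control, 13.1, 6.402 and 8.53 with 0.5%, 7.77, 17.0 and 29.5 with 1%, and 11.8, 10.2 and 8.90 with 2%. For each receptor, replicates 2 and 3 of the 1% diet were the 2 highest libraries of the 12, and replicate 1 of that diet lay within the range of the control.

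At 1% succinate the mean of IGF1R was 2.04 times and that of IGF2R 2.03 times the control mean. The log2 differences were 0.86 (SE 0.33, 95% interval 0.15 to 1.58) and 0.83 (SE 0.40, 95% interval -0.04 to 1.69), and neither passed, with adjusted p of 0.207 and 0.274 by limma. Without replicate 1 of the 1% diet 2634 of the 12095 tested genes passed at this dose. The receptor differences were then 1.26 and 1.30, with adjusted p of 0.0112 and 0.0229 by limma. Without replicates 2 and 3 they were 0.066 and -0.12, with an adjusted p of 0.997 each; the lone 1% library is then taken to have the spread of the other diets. Over all 21 alternatives the adjusted p ran from 0.0112 to 0.997 for IGF1R and from 0.0229 to 0.997 for IGF2R.

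Both receptor genes are long, at 11795 and 9078 bases, and long genes were higher at this dose. The median log2 difference was 0.32 over the longest 10% of the tested genes and -0.51 over the shortest 10%. With the trend on length removed from each library, the differences were 0.50 for IGF1R (adjusted p 0.412) and 0.53 for IGF2R (adjusted p 0.475). The part of this trend in the receptor values was not tested further. At 0.5% and 2% the receptor differences were 0.23 and 0.30 for IGF1R (SE 0.33) and 0.066 and 0.24 for IGF2R (SE 0.40).

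**Figure D2:**
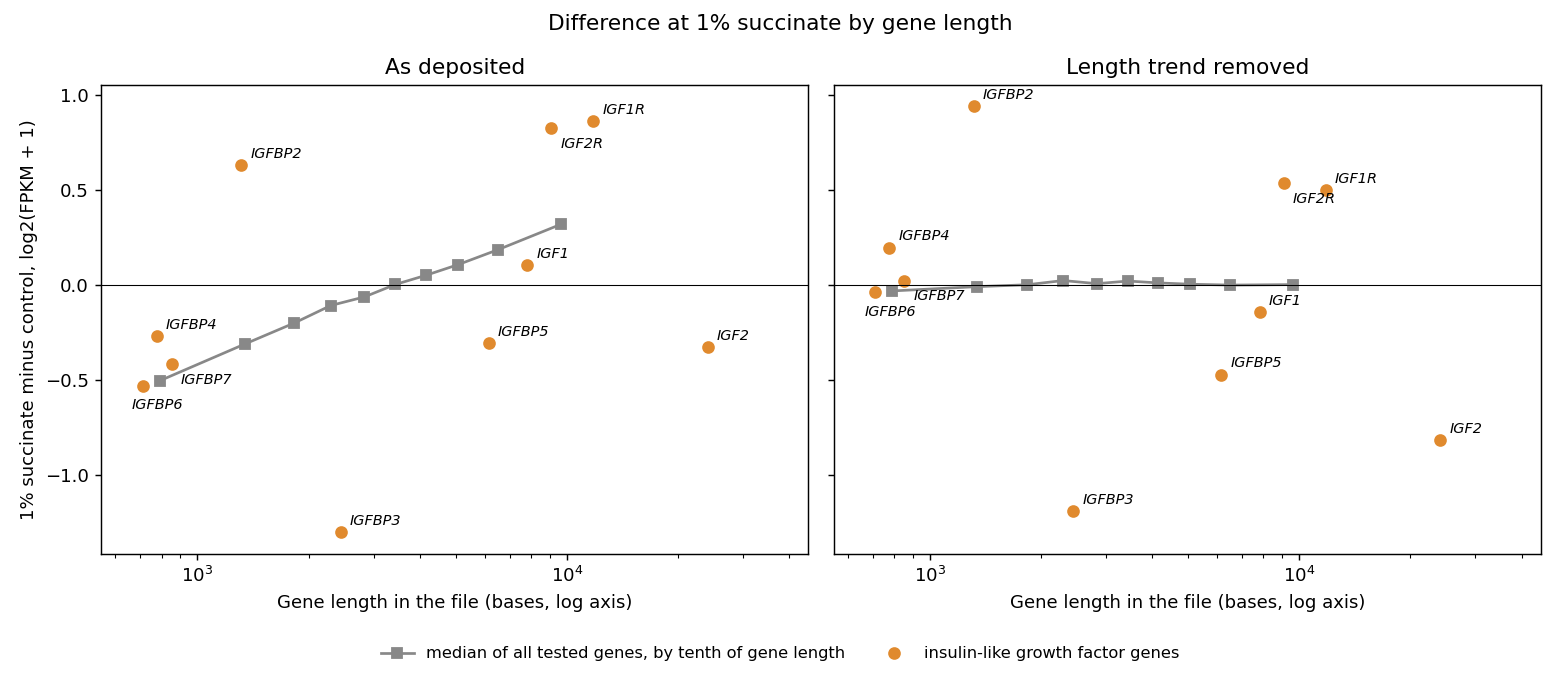
Difference between 1% succinate and control in log2(FPKM + 1) against gene length (bases, log axis), for FPKM as deposited (left) and with the length trend of each library removed (right). Grey squares are medians of all tested genes in 10 equal bins of gene length, and orange points are the 10 genes. As deposited, the medians climb from -0.51 to 0.32 with length; IGF1R and IGF2R lie above them in both panels, at 0.86 and 0.83 on the left and 0.50 and 0.53 on the right. Only 29 tested genes are at least as long as IGF2, so the trend is poorly fixed at its length.

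IGFBP2, a binding protein of both growth factors, had the largest relative spread of the family. It lies on chromosome 2 from 218627894 to 218657329 and stood at 1.81, 4.52 and 4.49 FPKM in the control, which came from 39, 96 and 95 reads. It stood at 24.9, 10.1 and 1.33 FPKM with 0.5% succinate, 5.13, 8.74 and 4.28 with 1%, and 8.17, 9.22 and 14.7 with 2%. The values with 2% succinate were all above those of the control, while those with 0.5% spanned an 18.6-fold range that held every other library of the series. The mean at 2% was 2.97 times that of the control, a log2 difference of 1.37 (SE 0.70, 95% interval -0.18 to 2.93), and did not pass (adjusted p 0.999 by limma). In a fit of only these 6 libraries its adjusted p was 0.393 (0.393 to 1 over 21 alternatives), and without any 1 of the 12 libraries the difference lay between 1.05 and 1.54. At 0.5% and 1% the differences were 0.99 and 0.63 (SE 0.70 each). With 1 library left out that at 0.5% ran from 0.21, without replicate 1 of the diet, to 1.95, without replicate 3 (adjusted p 0.958 and 0.43), and that at 1% from 0.31, without control replicate 1, to 0.81. The slope was 0.57 log2 units per percent (SE 0.32, adjusted p 0.9998).

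IGFBP3, the main carrier of the growth factors in blood, lies on chromosome 4 from 77778063 to 77786488. It stood at 12.5, 109 and 68.3 FPKM in the control, 24.9985, 66.5 and 22.9 with 0.5% succinate, 20.8, 22.6 and 12.3 with 1%, and 55.6, 30.7 and 38.8 with 2%. The control libraries were 8.72-fold apart, while the 3 libraries with 1% succinate were among the 4 lowest of the 12. The mean at 1% was 0.293 times the control mean, and the log2 difference of -1.30 (SE 0.69, 95% interval -2.83 to 0.22) did not pass (adjusted p 0.313 by limma). Without control replicate 1 the difference was -2.20 and without control replicate 2 it was -0.69, and neither passed (adjusted p 0.273 and 0.635; the 21 alternatives for this value gave 0.25 to 0.997). With the length trend removed it was -1.19. At 0.5% and 2% the differences were -0.43 and -0.18.

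IGFBP4 and IGFBP5, which smooth muscle cells and fibroblasts secrete, had the smallest relative spread of the binding proteins. IGFBP4, on chromosome 11 from 40422939 to 40433168, was 272, 449 and 301 FPKM in the control, 174, 385 and 363 with 0.5% succinate, 245, 272 and 313 with 1%, and 367, 314 and 288 with 2%. The SD over the 12 libraries was 23.1% of the mean, the same as the median of all tested genes (23.1%). Its differences of -0.20, -0.27 and -0.049 at the rising doses (SE 0.29) lay well within their errors, and those at 1% and 2% were 0.19 and 0.094 with the length trend removed.

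IGFBP5, on chromosome 2 from 218666725 to 218689628, was 139, 174 and 154 FPKM in the control, 68.0, 134 and 158 with 0.5% succinate, 96.1, 219 and 92.9 with 1%, and 189.8, 249 and 107 with 2%. The control libraries lay within 1.26-fold of each other, and each succinate diet had libraries 2.32-fold to 2.36-fold apart. Its differences were -0.45, -0.31 and 0.15 (SE 0.39), with adjusted p of 0.89, 0.677 and 0.999 by limma, and that at 1% was -0.68 without replicates 2 and 3 of that diet and -0.036 with quantile normalization. IGFBP5 and IGFBP2 are neighbours on opposite strands with 9395 bases between them. Over the 12 libraries their log2 values had a Pearson correlation of -0.264.

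IGFBP6, which prefers IGF2, and IGFBP7, a relative of the family that binds the growth factors weakly and is made by blood vessels and stroma, are both short genes here. IGFBP6, on chromosome 3 from 133354304 to 133357854, was 41.0, 108 and 87.8 FPKM in the control, 39.4, 92.6 and 50.2 with 0.5% succinate, 68.6, 39.6 and 46.7 with 1%, and 139.8, 38.8 and 81.0 with 2%. IGFBP7, on chromosome 6 from 73147302 to 73227030, was 59.4, 161 and 170.1 FPKM in the control, 92.0, 128 and 128 with 0.5%, 94.8, 73.9 and 97.4 with 1%, and 237, 116 and 169 with 2%. For both genes replicate 1 of the 2% diet was the highest library of the series. The differences of IGFBP6 were -0.36, -0.53 and 0.059 (SE 0.48), that at 1% being -0.039 with the length trend removed and -0.092 without replicates 2 and 3 of that diet. Those of IGFBP7 were -0.036, -0.42 and 0.50 (SE 0.36), that at 1% being 0.021 with the length trend removed. The IGFBP7 values with 1% and with 2% succinate did not overlap each other, at 73.9 to 97.4 against 116 to 237 FPKM, a contrast that no test here covers and that was picked with its values known. With the length trend removed they overlapped. Replicate 3 of the 1% diet then stood at 7.06 log2 units and replicate 2 of the 2% diet at 6.96. The share of all tested genes without overlap between these 2 diets was not counted.

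**Figure D3:**
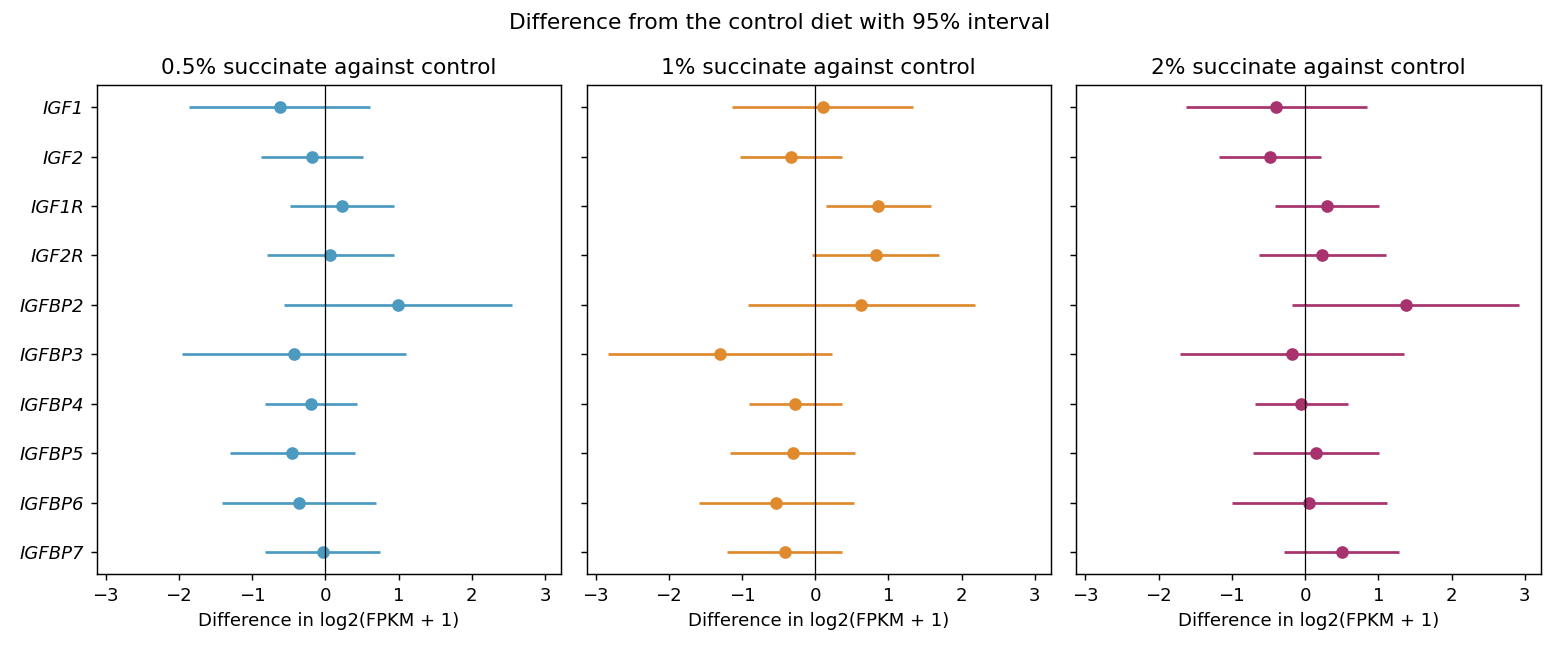
Difference from the control in log2(FPKM + 1) for the 10 genes at each dose. Points are the limma estimates and bars the 95% intervals, before any adjustment for the number of genes. All intervals span 0 except that of IGF1R at 1% succinate, from 0.15 to 1.58.

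By limma with adjustment over all 12095 tested genes, 0 of the 10 genes passed at any dose, in the slope on dose or in the test of any difference among the 4 diets, where 0% of all tested genes passed too. At an unadjusted p below 0.05, the 10 genes had 0 calls at 0.5%, 1 at 1% (IGF1R) and 0 at 2%, against 4.65%, 19.4% and 3.17% of all tested genes. The slope and the test among diets had 0 such calls in the family, against 3.21% and 12.6%. The diet and control did not overlap for 0 of 10 genes at 0.5% and at 1% and for 1 of 10, IGFBP2, at 2%, where 12.1%, 17.8% and 14.2% of tested genes did not overlap. Shares this close to the background, or under it, are not a result about the family.

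At 0.5% succinate 3 of the 10 log2 differences were above 0, with a median of -0.19, against 29.4% of all tested genes and a median of -0.11. With median-of-ratios scaling the median of all genes at this dose was -0.0026, so the values above carry that shift. At 1% succinate 4 of 10 were above 0, with a median of -0.29 (all genes: 45.4% and -0.044). At 2% succinate 6 of 10 were above 0, with a median of 0.10 (all genes: 49.3% and -0.0036). Over the 12 libraries, diets included, the SD was 36.3% to 80.2% of the mean for the 9 genes other than IGFBP4, against a median of 23.1% over all tested genes.

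Control replicate 1 was the lowest control library for 10 of the 10 genes, against 49.3% of all tested genes, a pattern picked with its values known. Control replicate 2 was the highest for 7 and control replicate 3 for 3. Among the libraries with 2% succinate, replicate 1 was the highest for 7 of 10, against 39.8% of tested genes. At 0.5% and 1% no library was the lowest for more than 5 of the 10 genes or the highest for more than 6. Since control replicate 1 enters every comparison, leaving it out moved all 10 differences down at each dose.

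The summed level of 8 fibroblast markers, all 8 above 1 FPKM on average, was 1065 FPKM in control replicate 1 against 2371 and 1975 in replicates 2 and 3. It ran from 1200.5 to 2031 with 0.5% succinate, 1387 to 1589 with 1% and 1122 to 2363 with 2%. The 8 endothelial markers, also all above 1 FPKM, summed to 71.7 FPKM in control replicate 1 and to 143 and 146 in the other control libraries, and ran from 61.3 to 149 with 0.5%, 81.7 to 111 with 1% and 78.6 to 154 with 2%. The 3 pericyte markers summed to 46.5, 75.9 and 80.0 FPKM in the control and ran from 32.3 to 64.8, 36.7 to 56.1 and 39.4 to 90.3 at the rising doses.

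Fat cell markers varied most between libraries. The 6 markers, 5 of them above 1 FPKM on average, summed to 93.2, 258 and 708 FPKM in the control, 33.3 to 185 with 0.5% succinate, 29.6 to 177 with 1% and 85.5 to 899.5 with 2%. The highest sum belonged to replicate 1 of the 2% diet, which also had the highest IGFBP6, IGFBP7, endothelial and pericyte values of the series. No fibroblast, endothelial, pericyte, macrophage or fat cell marker was at 0 in all libraries. The 7 macrophage markers summed to 113 to 190.5 FPKM in the control and to 43.8 to 105, 78.7 to 102 and 81.9 to 96.0 at the rising doses, which did not overlap the control. Taken singly, 7, 6 and 7 of these 7 markers had a log2 difference below 0 at the rising doses. So had 6, 6 and 5 of the 6 fat cell markers. Of the 12095 tested genes, 8534, 6603 and 6131 were below 0. The 8 smooth muscle markers summed to 35749 to 46747 FPKM with 0.5% succinate and 26052 to 28372 in the control, while the 25670 to 36569 with 1% and 24783 to 31333 with 2% overlapped the control. Of all tested genes taken singly, 12.1%, 17.8% and 14.2% did not overlap the control at 0.5%, 1% and 2%. The part of any of these markers in the levels of the growth factor genes was not tested.

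**Figure D4:**
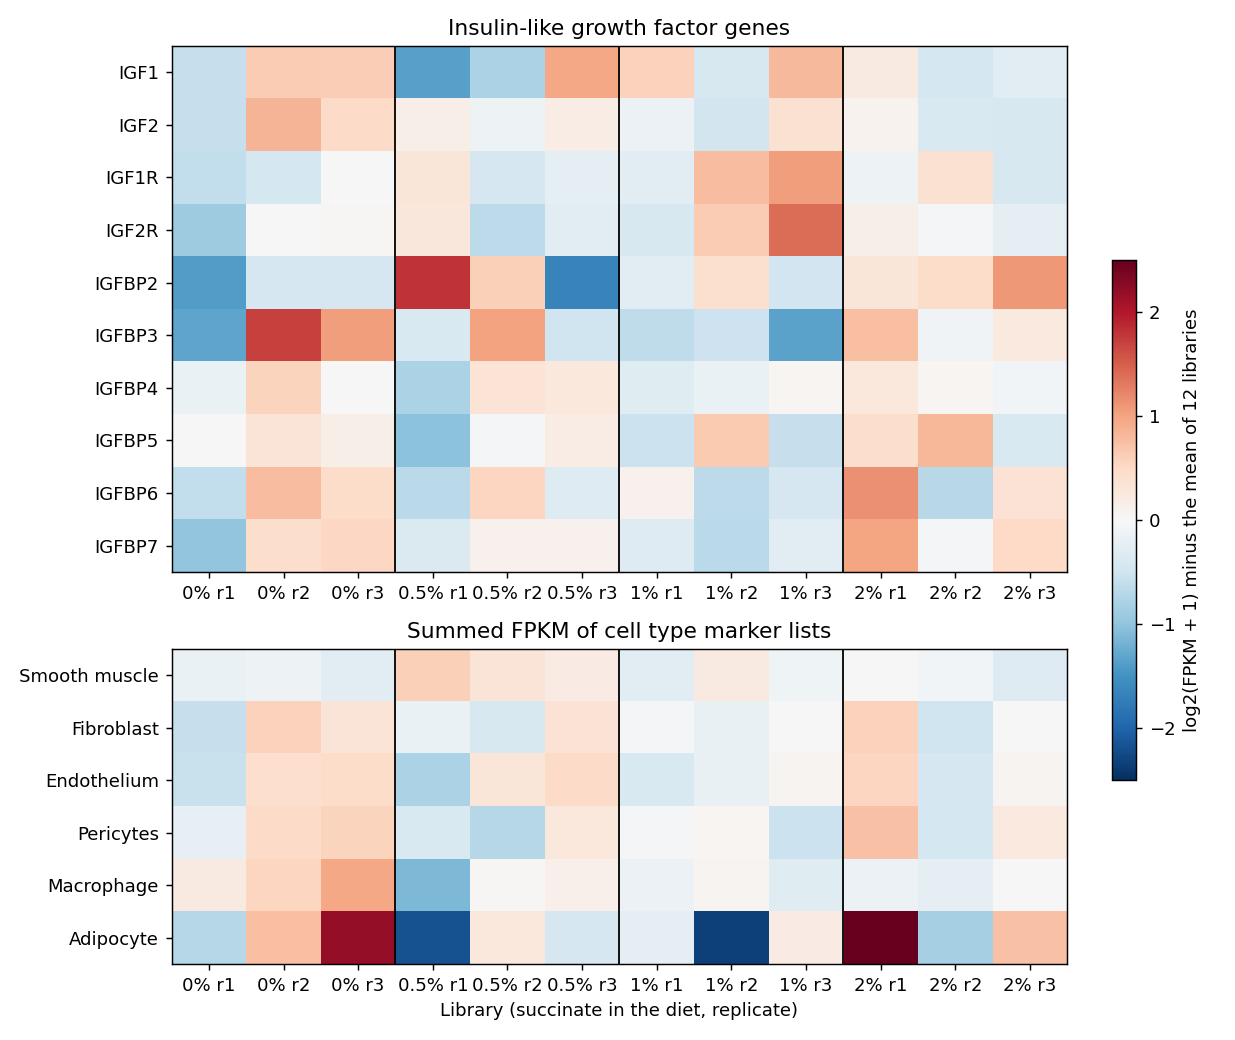
Deviation of each library from the mean of the 12 libraries in log2(FPKM + 1), for the 10 genes (top) and for the summed FPKM of 6 cell type marker lists (bottom). Columns are libraries, labelled by succinate in the diet (%) and replicate number (r), and red is higher. In the first column, control replicate 1, IGFBP5 lies at its mean and the other 9 genes lie below theirs; IGF1R and IGF2R are reddest in replicates 2 and 3 of the 1% diet; IGFBP6 and IGFBP7 are reddest in replicate 1 of the 2% diet.

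Over the 12 libraries, the 45 pairs of family genes had Pearson correlations from -0.677 to 0.897, given here as a description of libraries that share diets, length trend and tissue makeup. The highest was that of IGF1R with IGF2R, at 0.897, which was 0.709 over the 10 libraries without replicates 2 and 3 of the 1% diet and 0.797 with the length trend removed. IGFBP6 with IGFBP7 followed at 0.832 (0.800 and 0.783 in those settings), IGFBP3 with IGFBP6 at 0.792 (0.785 and 0.644) and IGFBP3 with IGFBP7 at 0.769 (0.780 and 0.547). The growth factors had a correlation of 0.555 with each other. The lowest was that of IGF1 with IGFBP2, at -0.677 (-0.668 and -0.732). The library highest in IGF1, replicate 3 of the 0.5% diet, was the lowest in IGFBP2, and replicate 1 of that diet was the reverse. Both settings in brackets keep these 0.5% libraries, and the correlation without them was not computed.

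Among 7451 other genes of at least 5 FPKM, those most like the receptors over the libraries were SLC41A1 (a magnesium transporter), RAPGEF1 and FYCO1 for IGF1R, with correlations of 0.987 to 0.9745, and HEG1, CSPG4 (the NG2 proteoglycan of pericytes) and DNAJC5 for IGF2R, at 0.981 to 0.969. These 6 genes are 4594 to 13920 bases long. IGF2 was most like APH1A, PCOLCE (an enhancer of collagen processing) and MFAP2 (a microfibril protein), at 0.932 to 0.863. For IGF1, ADD3 stood at 0.935 and VGLL4 at 0.903.

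Of the binding proteins, IGFBP6 had the closest matches: TM4SF1, VIM (vimentin, the filament of mesenchymal cells) and CLEC3B, at 0.946 to 0.920. IGFBP7 was most like ANXA2, RAB3IL1 and EGFL7 (secreted by endothelium), at 0.888 to 0.882, and IGFBP3 most like SELENBP1, S100A11 and ECI1, at 0.911 to 0.896. IGFBP4 was most like PTGDS, ID3 and PCOLCE2, at 0.895 to 0.864, and IGFBP2 most like TMEM51, RCAN2 and FADS3, at 0.871 to 0.866. IGFBP5 was most like TEAD2 at 0.893, with the next 2, FAM189A2 and CBLL1, at 0.779 and 0.767. All these are the highest of 7451 correlations over 12 libraries, and no background was computed for them. Which cells the RNA of the family genes came from was not tested.

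The proteins around the binding proteins were mixed in level. IGFBP1, the liver member of the family, reached at most 0.284 FPKM, and the pappalysins PAPPA and PAPPA2, which cut binding proteins, averaged 0.246 and 0.119. Of 15 listed modulators 10 were tested, led by the lysosomal protease CTSD at 144 ± 21.6 FPKM and the matrix protease MMP2 at 88.8 ± 37.5 (SD, n = 12). By limma 0 of 10 passed at each dose. Above 0 were 7, 7 and 5 of 10 at the rising doses (all genes: 29.4%, 45.4% and 49.3%). The list medians were 0.13, 0.048 and -0.00015. The smallest unadjusted p at each dose belonged to HTRA1, a protease that cuts binding proteins, at 71.3 ± 4.13 against 60.2 ± 11.2 FPKM for 0.5% (SD, n = 3 per diet), STC2, an inhibitor of the pappalysins, at 8.95 ± 4.59 against 3.80 ± 1.26 for 1%, and PRSS23 at 48.3 ± 7.79 against 33.1 ± 2.89 for 2%, with adjusted p of 0.883, 0.269 and 0.999.

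Of 10 genes of the insulin and growth hormone axis 8 were tested, and INS itself had no reads. The growth hormone receptor GHR averaged 36.5 ± 6.34 FPKM and STAT5B, which carries its signal to the nucleus, 17.5 ± 3.89 (SD, n = 12). SOCS2, which STAT5 induces and which limits growth hormone signalling, had the smallest p at 0.5% succinate: 9.30, 10.96 and 6.34 FPKM in the control against 1.53, 4.53 and 6.27. The 2 diets did not overlap, by a margin of replicate 3 against replicate 3, and the log2 difference was -1.05 (SE 0.37, adjusted p 0.883 by limma). Of all tested genes 12.1% did not overlap the control at 0.5%. The SOCS2 differences at 1% and 2% were -0.96 and -0.34. At 1% the smallest p was that of INSR, the insulin receptor, at 7.93, 12.5 and 15.05 against 5.69, 6.92 and 7.76 FPKM, a difference of 0.69 (SE 0.21, adjusted p 0.197). INSR is 9290 bases long and, like IGF1R and IGF2R, stood higher in replicates 2 and 3 of that diet than in replicate 1. The part of gene length in the INSR values was not tested. At 2% it was GRB14, an inhibitor of the insulin receptor, at 4.01 ± 1.65 against 2.48 ± 1.40 FPKM (adjusted p 0.999). By limma 0 of 8 passed at each dose. Above 0 were 3, 4 and 5 of 8 (all genes: 29.4%, 45.4% and 49.3%), with medians of -0.082, -0.036 and 0.017. At an unadjusted p below 0.05 the list had 1, 4 and 0 members, against 4.65%, 19.4% and 3.17% of all tested genes.

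Of 39 listed genes of signalling below the receptors 38 were tested, led by RHEB, the activator of mTOR, at 155 ± 30.8 FPKM and the kinase AKT1 at 69.3 ± 5.87 (SD, n = 12). By limma 0 of 38 passed at each dose. At an unadjusted p below 0.05 the list had 1, 11 and 1 members at the rising doses, against 4.65%, 19.4% and 3.17% of all tested genes. Medians were -0.049, 0.18 and 0.084, with 11, 27 and 29 of 38 above 0. For all tested genes they were -0.11, -0.044 and -0.0036, with 29.4%, 45.4% and 49.3% above 0. The part of gene length in the values of this list was not tested. At 0.5% the smallest p was that of SOS2, an activator of RAS, at 5.44 ± 0.432 against 6.95 ± 0.238 FPKM (SD, n = 3 per diet; adjusted p 0.883). PIK3R2, a regulatory subunit of PI3 kinase, had the smallest p at both other doses. It stood at 11.6, 12.1 and 13.4 FPKM in the control, 15.3, 22.2 and 23.7 with 1% and 17.4, 18.97 and 17.8 with 2%, so that every library of these diets was above the control. Of all tested genes, 17.8% at 1% and 14.2% at 2% did not overlap the control, in either direction. The differences of PIK3R2 were 0.65 and 0.51 (SE 0.18 each), with adjusted p of 0.197 and 0.999 by limma.

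IGF2BP2, the only tested member of the proteins that bind IGF2 RNA, averaged 2.09 ± 0.904 FPKM (SD, n = 12), with differences of 0.15, 0.13 and 0.38 at the rising doses (SE 0.29); IGF2BP1 had no reads and IGF2BP3 averaged 0.0945 FPKM. Of 7 imprinted genes, a class to which IGF2 and IGF2R belong in sheep, 5 were tested, and H19 and MEG3 were not found by symbol. CDKN1C, an inhibitor of the cell cycle, averaged 31.3 ± 8.43 FPKM and PLAGL1 9.20 ± 0.879. By limma 0 of 5 passed at each dose. Above 0 were 2, 3 and 2 of 5 (all genes: 29.4%, 45.4% and 49.3%), with medians of -0.029, 0.037 and -0.0023. CDKN1C had the smallest p at 0.5% and 2%, at 38.5 ± 4.28 and 27.7 ± 6.91 FPKM against 33.8 ± 5.27 in the control (SD, n = 3 per diet). PEG3 had it at 1%, at 4.41, 7.31 and 15.02 FPKM against 2.25, 2.99 and 3.52, a difference of 1.21 (SE 0.34, adjusted p 0.197 by limma). PEG3 is 11280 bases long, and PIK3R2 and STC2, with the smallest p of their lists at 1%, 4056 and 4131 bases. The part of gene length in these values was not tested.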

How the data were processed

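RNA was sequenced from 12 libraries of Tan sheep, 3 for each of 4 diets. Per the file headers the deposited values are FPKM made by the authors. cutadapt 1.15, HISAT2 2.1.0 and HTSeq 0.9.1 are named in the submitters' processing notes; genome build and strand setting are not given in the sources used here. Multiplied by gene length and divided by the smallest such product of the library, the deposited FPKM came out as whole reads (within 0.01) for 100% of values. Positions are those of the deposited table. Chromosome numbers come from a RefSeq gene table (ARS-UI_Ramb_v3.0), which held 98.2% of the gene IDs. The spans of IGF2 and IGFBP4 differ between these sources, and those of the other family genes are the same.

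limma 3.58.1 (R 4.3.3, statmod 1.5.0) fitted log2(FPKM + 1), with an intensity trend and robust moderation, over all 12 libraries, for the 12095 genes past the filter of 1 FPKM in 3 libraries. P-values are two-sided and adjusted by Benjamini-Hochberg, with 0.05 as the threshold. The fit was tested on simulated data with no length trend and the same added noise for every gene. Such data cannot show how well a change in the family genes would be found. No exact permutation tests are given, since the smallest p for 3 libraries against 3 is 0.1. No pair of libraries was a copy (lowest chi-square over genes 20.8 per gene, 66 pairs).

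The family and all lists and rules were chosen with earlier results of these data known. All 10 genes are named; of each other list, the gene with the smallest p per dose and the 2 most abundant. Genes named as most alike are the 3 with the highest Pearson correlation, of which 1 is not reported here. Further names were chosen after their values were seen. Alternatives were another pseudocount, no filter, 2 scalings, removal of a loess trend on gene length, limma-voom on reads, a replicate block and left-out libraries.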

Additional observations from a re-analysis of the deposited data

How the results depend on the processing

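No family gene passed by limma in any setting except without replicate 1 of the 1% diet: IGF1R (log2 difference 1.26, adjusted p 0.0112; any difference among diets, adjusted p 0.0466) and IGF2R (1.30, adjusted p 0.0229). Without that library 2634 of the 12095 tested genes passed at 1%, 1344 among diets and 1 at 2%. At 1%, 1 gene (HINT1) passed without replicate 2 of the 2% diet. LOC101120481 alone passed at 2%, and alone among diets, without replicates 2 and 3 of the 1% diet (1 gene in each) and at 2% without replicate 1 of the 1% diet; in a fit of only 6 libraries 5 genes passed at 2% (ANLN, CKAP2, KIF20A, LOC101120481 and TOP2A). Over the fits without 1 library, counts ran from 0 to 2634 at 1%, 0 to 1 at 2% and 0 to 1344 among diets; all other settings gave 0, with 562, 2346 and 383 genes at an unadjusted p below 0.05 in the fit reported and 575, 2264 and 360 by limma-voom.

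Some differences turned sign; the cause was not tested. With the length trend removed IGF1 at 1% was -0.14, IGFBP4 was 0.19 at 1%, 0.094 at 2% and 0.082 as a slope, and IGFBP7 was 0.033 at 0.5% and 0.021 at 1%. With quantile normalization IGFBP4 was 0.053 at 1%, 0.045 at 2% and 0.058 as a slope, and with median-of-ratios scaling IGFBP7 at 0.5% was 0.10. IGF2R at 1% was -0.12 without replicates 2 and 3 of that diet. With 1 library left out, differences at 0.5% ran from -0.59 to 0.12 for IGF2, -0.23 to 0.28 for IGF2R, -1.33 to 0.18 for IGFBP3, -0.40 to 0.17 for IGFBP4 and -0.52 to 0.23 for IGFBP7. At 1% IGF1 ran from -0.30 to 0.47. At 2% they ran from -0.064 to 0.39 for IGF2R, -1.08 to 0.44 for IGFBP3, -0.19 to 0.17 for IGFBP4, -0.12 to 0.49 for IGFBP5 and -0.37 to 0.54 for IGFBP6. Slopes ran from -0.20 to 0.0034 for IGF1, -0.33 to 0.18 for IGFBP3, -0.073 to 0.086 for IGFBP4, -0.024 to 0.26 for IGFBP5 and -0.19 to 0.24 for IGFBP6.

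Over the 18 same-numbered pairs of libraries, correlations of deviations ran from -0.334 to 0.2585, 5 of them above 0.1, and 6 of 12 libraries correlated best with their own number. The exception is control with 0.5%, where all 3 same-numbered pairs were above 0.1 (0.227, 0.2321 and 0.166). With the replicate number as a block 0 genes passed in each comparison; the block leaves the estimates as they are and alters only their errors. With that block in a fit of only control and 0.5%, chosen after seeing the data, 0 genes passed, 929 had an unadjusted p below 0.05, and the family genes had adjusted p of 0.672 to 0.97. Without replicate 2 of the 0.5% diet 0 genes passed at that dose; IGFBP3 was then -0.91 and IGFBP6 -0.71. Depth limits IGFBP2 most, at 32 to 554 reads per library; no other family gene had fewer than 365.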
